A study of Mus musculus with 8 samples.

Results

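The genes described here are 41 integrins and leukocyte adhesion molecules: 26 integrin subunits (18 alpha and 8 beta), 9 immunoglobulin superfamily molecules, 2 selectins, 2 receptors that bind selectins or matrix, and 2 cytoplasmic activators of integrins. They were taken by name, with current synonyms allowed, from a deposited table with 1 value per gene, and 38 of the 41 were found among its 16419 genes. ITGAD, ITGB8 and ALCAM were not found there. ITGAD and ITGB8 were read from their own probe sets instead, and ALCAM was not analysed here.

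The RNA came from leukemia cells of 8 transgenic mice, 1 Affymetrix Mouse Exon 1.0 ST array per mouse. In the first group, labelled ROR1xTCL1, 4 mice carried both a ROR1 and a TCL1 transgene. In the second, labelled TCL1, 4 mice carried TCL1 alone, so every leukemia studied had the TCL1 transgene and no array held normal B cells. TCL1 is an oncogene, expressed in this model from immunoglobulin heavy chain control elements, and the mice are a model of chronic lymphocytic leukemia, a malignancy of mature B cells. ROR1 is a surface receptor for Wnt5a. The promoter of the ROR1 transgene, the organ the cells came from, their purity, and the age and sex of the mice are not given in the sources used here. The comparison asks whether leukemias with both transgenes carry a different set of adhesion molecules from leukemias with TCL1 alone.

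Integrins are surface receptors made of an alpha and a beta subunit, which must pair inside the cell to reach the surface. On lymphocytes they bind matrix proteins and molecules such as ICAM1 and VCAM1 on other cells, and they do so firmly only after talin and kindlin bind the tail of the beta subunit. In lymphoid organs and bone marrow they hold B cells, and chronic lymphocytic leukemia cells, beside stromal and endothelial cells. Selectins start the rolling of leukocytes on vessel walls, and CD44 binds hyaluronan in the matrix. RNA levels do not show how much of a receptor is on the surface or whether it is active.

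The gene values are on a scale taken as log2 from their range, and the arrays had nearly the same distribution: their first quartile lay at 3.52 to 3.71, the median at 5.03 to 5.09 and the third quartile at 6.76 to 6.87. A gene's value depends on its probes as well as on its RNA, so a level was set only against the quartiles of all genes on the same array, and differences were tested within a gene. Gene table columns show the genotype but not which sample they are, and each group's arrays are lettered a to d. Columns of the probe set table are called replicates 1 to 4, and letters were not matched to numbers. Nothing in the labels ties the mice of a group to separate litters or dates, and p-values measure the spread between these 8 arrays. In such mixed samples, fewer cells of a type and less RNA per cell cannot be told apart.

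Of 11 markers of B cells, 9 were above the median gene on every array. CD79A, a chain of the B cell receptor complex, lay at 11.5 to 11.9 over the 8 arrays, and CD5, which marks this leukemia, at 7.27 to 7.87. ROR1 itself averaged 4.41 ± 0.34 in ROR1xTCL1 leukemias and 3.77 ± 0.17 in TCL1 leukemias (SD, n = 4 each) in the gene table, with no overlap. The gap was narrow, with ROR1xTCL1 array a at 4.07 and TCL1 array d at 4.03, and 1.1% of all genes had no overlap. ROR1 was under the median gene on every array, and its difference of 0.64 ± 0.18 (SE) did not pass the limma test adjusted over all genes. Marker scores of other cell types, each the mean of log2 values centred on the gene's mean, differed widely among single arrays. The neutrophil score was 2.67 on TCL1 array a and 1.24 on TCL1 array c, and lay between -1.18 and -0.13 on the other 6. The erythroid score was 1.82 on ROR1xTCL1 array a and between -0.92 and 0.44 elsewhere. The Y-linked gene DDX3Y was at 7.70 and 8.15 on ROR1xTCL1 arrays c and d and at 7.29 on TCL1 array c, against 2.42 to 2.88 on the other 5, so the sexes were not balanced between the groups.

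Sequence is shown for the promoters of 2 neighbouring genes on chromosome 7, ITGAM and ITGAX. These are the alpha subunits of myeloid integrins, and both had their highest value on TCL1 array a. That array had the highest neutrophil, monocyte and macrophage, T cell, natural killer cell and dendritic cell scores, and the highest value of 12 of the 38 genes. On TCL1 array c, next in the neutrophil score at 1.24, ITGAX was at 5.32. Each sequence is the 250 bases upstream of the gene's start in RefSeq on GRCm38.p6, plus strand, at chr7:128062390-128062639 for ITGAM and chr7:128129300-128129549 for ITGAX. Capitals mark GAGGAA or its reverse complement TTCCTC, the purine-rich core that PU.1, a factor of myeloid and B cells, can bind.
ITGAM: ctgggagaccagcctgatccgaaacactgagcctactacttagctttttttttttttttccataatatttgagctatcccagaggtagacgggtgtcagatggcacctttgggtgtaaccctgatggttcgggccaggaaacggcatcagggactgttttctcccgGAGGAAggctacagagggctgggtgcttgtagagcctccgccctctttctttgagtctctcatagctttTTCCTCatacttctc
ITGAX: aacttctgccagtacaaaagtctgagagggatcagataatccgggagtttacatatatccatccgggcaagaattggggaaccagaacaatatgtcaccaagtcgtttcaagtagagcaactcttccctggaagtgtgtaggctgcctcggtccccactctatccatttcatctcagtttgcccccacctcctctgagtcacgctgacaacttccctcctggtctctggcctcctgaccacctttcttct
The ITGAM window held 1 match on each strand and the ITGAX window held 0. Of all 32851 RefSeq promoter windows of the same length, 23.3% held at least 1 match on either strand. The match is a description of these letters only.

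Of the 17 alpha subunits measured, 6 were above the median gene on all 8 arrays: ITGA4, ITGA6, ITGA10, ITGAL, ITGAM and ITGAV. Of all genes, 44.0% were above the median on every array. Only ITGA4 and ITGAL among these subunits were above the third quartile on every array. ITGAL is the alpha chain of LFA-1, the main lymphocyte receptor for ICAM1. ITGAL had 8.43, 8.32, 8.49 and 8.60 on ROR1xTCL1 arrays a to d, against 8.68, 8.50, 8.87 and 8.28 on TCL1 arrays a to d. The 2 groups overlapped, with the highest value on TCL1 array c and the lowest on TCL1 array d. The difference was -0.12 ± 0.14 (SE; 95% interval -0.44 to 0.20; limma, adjusted p = 0.9995).

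ITGA4 is the alpha chain of VLA-4, which binds VCAM1 and fibronectin, and of the gut-homing integrin formed with ITGB7. Its values were 9.26, 8.997, 9.10 and 9.32 on ROR1xTCL1 arrays a to d, against 9.33, 8.98, 8.06 and 8.84 on TCL1 arrays a to d. All ROR1xTCL1 arrays lay within a narrow band, and TCL1 array c lay far below every other array. The difference of 0.37 ± 0.24 (SE; 95% interval -0.18 to 0.92) did not pass the test (limma, adjusted p = 0.9995; exact permutation p = 0.229). It was 0.12 ± 0.15 without TCL1 array c and 0.54 ± 0.22 without TCL1 array a (SE; limma, adjusted p = 0.9999 and 1.0). As a mean of its 21 probe sets ITGA4 differed by 0.41 ± 0.16 (SE; limma, p = 0.0295, adjusted p = 0.9996; exact permutation p = 0.0571), and 19 of the 21 were higher in ROR1xTCL1 leukemias. Those probe sets share the same arrays, so this count adds no replicates, and in 2 of the 21 the groups did not overlap. By the median of the probe sets ITGA4 differed by 0.50 ± 0.24 (SE), which did not pass the test either. The levels of those probe sets ran from 2.151 to 9.52, and their mean of 6.29 was far under the gene table's 8.99, a value reached by 2 of them.

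ITGAM, the alpha chain of the myeloid receptor Mac-1, had 6.48, 7.20, 5.88 and 5.92 on ROR1xTCL1 arrays a to d, against 7.29, 5.62, 6.89 and 5.53 on TCL1 arrays a to d. High and low arrays occurred in both groups, and the group means were nearly the same (difference 0.03 ± 0.45, SE; 95% interval -0.99 to 1.06). ITGAX, the alpha chain of a complement receptor of dendritic cells, macrophages and some B cells, had 5.32, 5.33, 5.34 and 5.39 on ROR1xTCL1 arrays a to d, against 6.21, 5.34, 5.32 and 4.75 on TCL1 arrays a to d. Arrays a and d of TCL1 held both extremes and the other 6 were almost equal. ITGAX was above the median gene on 7 arrays, with TCL1 array d below it.

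ITGAV, which forms vitronectin receptors with several beta chains, had 6.42, 7.46, 7.28 and 6.74 on ROR1xTCL1 arrays a to d, against 7.09, 7.17, 6.56 and 7.10 on TCL1 arrays a to d. The ROR1xTCL1 arrays spanned both ends of the range, and 3 TCL1 arrays lay close together above the fourth. ITGA6, a laminin receptor chain, had 5.64, 6.32, 6.39 and 6.21 on ROR1xTCL1 arrays a to d, against 6.23, 6.16, 5.47 and 6.60 on TCL1 arrays a to d. One array of each group, ROR1xTCL1 array a and TCL1 array c, stood below the others. ITGA5, the alpha chain of the classical fibronectin receptor, had 6.40, 5.59, 5.18 and 5.49 on ROR1xTCL1 arrays a to d, against 5.44, 4.82, 6.65 and 5.85 on TCL1 arrays a to d. Its highest values were on the same 2 arrays on which ITGA6 was low, and it fell under the median gene on TCL1 array b alone. The differences were -0.00 ± 0.24 for ITGAV, 0.03 ± 0.25 for ITGA6 and -0.02 ± 0.39 for ITGA5 (SE).

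ITGA9, which binds VCAM1 and tenascin, had 4.88, 4.30, 4.14 and 3.90 on ROR1xTCL1 arrays a to d, against 5.31, 4.63, 4.19 and 4.06 on TCL1 arrays a to d. Array a was the highest of either group, and TCL1 array a was the only one above the median gene. ITGA10, a collagen receptor chain known from cartilage, had 6.70, 7.31, 6.95 and 7.10 on ROR1xTCL1 arrays a to d, against 6.62, 6.58, 7.46 and 7.12 on TCL1 arrays a to d. The groups overlapped over most of their range. The ITGA10 level did not hold in the other table: its 36 probe sets averaged 3.91, against 6.98 in the gene table, and 1 of them reached the gene table's value. ITGA1, a collagen receptor chain of activated T and natural killer cells, likewise averaged 3.40 over 39 probe sets against 5.13. The names of both are followed by blanks in the deposited table, as are those of 2303 rows, and such rows differed from their probe set mean by more than 1.5 log2 units in 9.04% of cases, against 3.27% of the other rows. ITGAX is such a row too, and its values were alike in both tables (5.38 and 5.41). Over all 38 genes, the 2 tables differed by more than 1 log2 unit for 5: ITGA1, ITGA4, ITGA10, CD48 and CD2.

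Among the remaining alpha subunits, ITGA2, ITGA3, ITGA7, ITGA8, ITGA11 and ITGAE were below the median gene on all 8 arrays. These pair with ITGB1, except ITGAE, which pairs with ITGB7 on lymphocytes lodged in epithelia. ITGA2B, the platelet fibrinogen receptor chain, lay at the median, between 4.82 and 5.20, and exceeded it on 3 arrays. ITGA8, a receptor chain known from kidney development, was under the first quartile on 5 arrays, where its signal may be background. ITGAD, read from 23 probe sets, had 5.52, 4.74, 5.20 and 4.72 in ROR1xTCL1 replicates 1 to 4, against 6.50, 5.62, 5.16 and 4.67 in TCL1 replicates 1 to 4. It was above the median of genes so computed on all 8 arrays, and its values overlapped between the groups, with TCL1 replicate 1 the highest.

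Of the 7 beta subunits measured, ITGB1, ITGB2 and ITGB7 were above the third quartile on all 8 arrays, and the other 4 were at or below the median on at least some. ITGB1, the partner of most matrix-binding alpha chains, had 9.69, 10.01, 10.14 and 9.64 on ROR1xTCL1 arrays a to d, against 9.71, 9.86, 10.35 and 9.64 on TCL1 arrays a to d. TCL1 array c was the highest, and the lowest arrays of both groups were almost equal. ITGB2, the beta chain of the leukocyte integrins, had 7.93, 7.80, 7.99 and 7.99 on ROR1xTCL1 arrays a to d, against 8.47, 8.06, 7.95 and 7.28 on TCL1 arrays a to d. The ROR1xTCL1 arrays lay inside the range of the TCL1 arrays, which ran from array d to array a. ITGB7, the beta chain of gut-homing lymphocytes, had 7.94, 7.89, 7.62 and 7.19 on ROR1xTCL1 arrays a to d, against 7.72, 7.21, 8.06 and 7.97 on TCL1 arrays a to d. Each group held 1 low array, ROR1xTCL1 array d and TCL1 array b. The differences were -0.02 ± 0.18 for ITGB1, -0.01 ± 0.22 for ITGB2 and -0.08 ± 0.23 for ITGB7 (SE).

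ITGB5, which pairs with ITGAV as a vitronectin receptor, had 5.49, 4.50, 4.80 and 4.84 on ROR1xTCL1 arrays a to d, against 5.41, 5.05, 5.51 and 4.49 on TCL1 arrays a to d. It exceeded the median gene on 3 arrays, ROR1xTCL1 array a and TCL1 arrays a and c. ITGB3, the platelet beta chain, exceeded it on 4. ITGB4, the beta chain of hemidesmosomes, was below the median on every array. ITGB6, an epithelial chain that activates TGF-beta with ITGAV, lay between 2.45 and 3.01, under the first quartile on all 8 arrays, a level not shown to exceed background. ITGB8, read from 25 probe sets, was above the median of genes so computed on 0 of the 8 arrays.

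**Figure D1:**
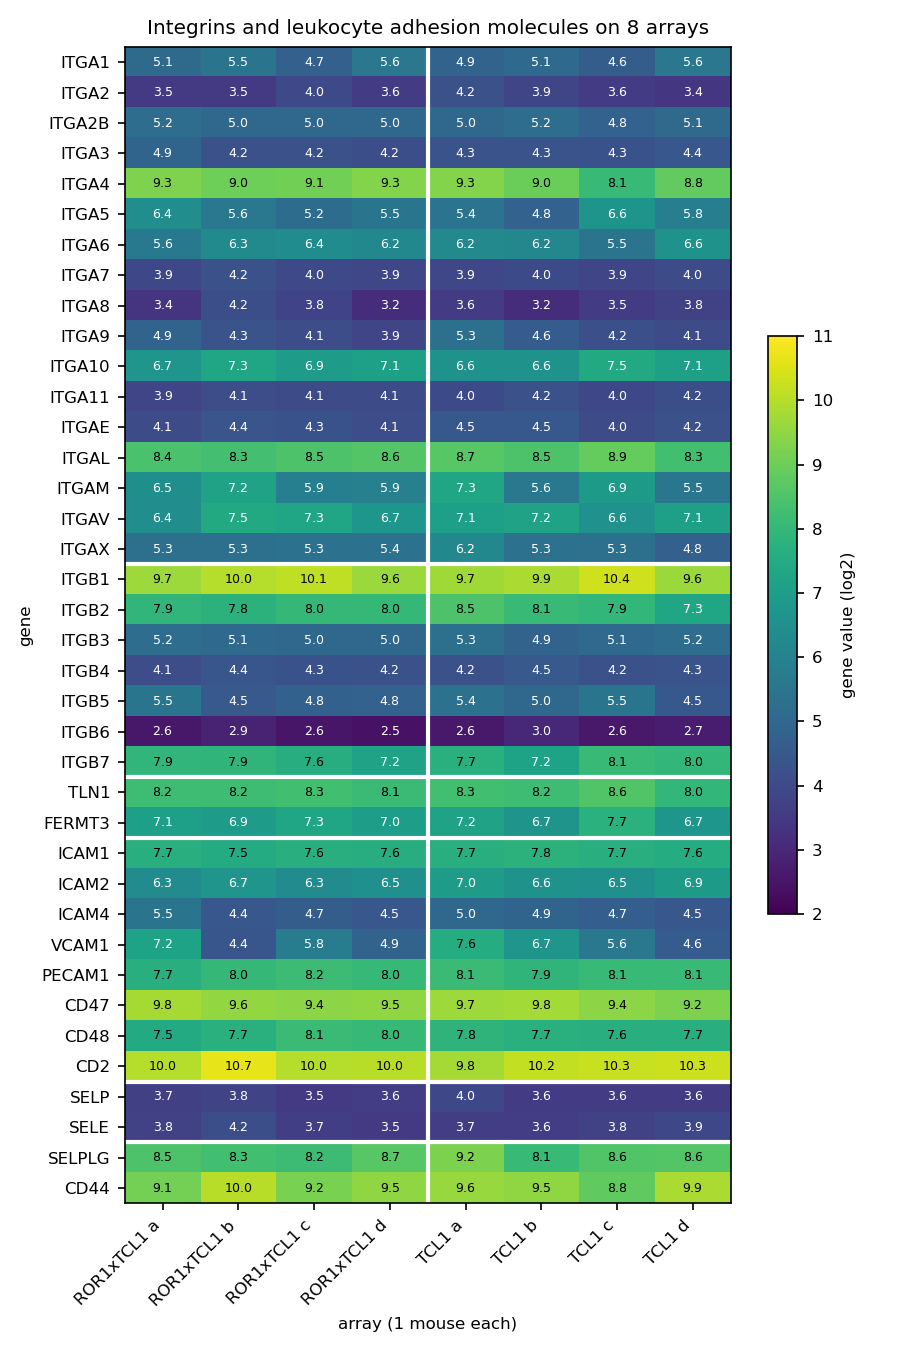
Gene values (log2, colour and printed number) of the 38 measured adhesion genes (one row each) on the 4 ROR1xTCL1 arrays (left) and the 4 TCL1 arrays (right); white lines part the groups and the classes of gene. Values are to be compared along a row, and no row shows the 4 arrays of one group all above or all below the other 4.

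Known heterodimers were then read from both subunits. Of 24 known pairs, 22 had both subunits in the gene table, and in 7 pairs both were above the median gene on all 8 arrays. These were ITGAL/ITGB2 (LFA-1), ITGAM/ITGB2 (Mac-1), ITGA4/ITGB1 (VLA-4), ITGA4/ITGB7, ITGA6/ITGB1, ITGAV/ITGB1 and ITGA10/ITGB1. With the third quartile as the bar, 3 remained: ITGAL/ITGB2, ITGA4/ITGB1 and ITGA4/ITGB7. By probe set means, ITGA4 was under the third quartile in TCL1 replicate 2 (6.02 against 6.14) and TCL1 replicate 3 (5.78 against 6.23). The pairs with ITGA4 therefore passed that bar in the gene table alone. Read from probe set means, 11 of 24 pairs passed the median, and 6 passed in both tables. ITGA10/ITGB1 was the pair that passed in the gene table alone, and ITGA5/ITGB1, ITGAX/ITGB2, ITGAD/ITGB2, ITGA2B/ITGB3 and ITGAV/ITGB3 passed by probe sets alone. The same subunit serves several pairs, so these counts share genes, and RNA of both chains does not show that they pair.

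The RNA of partner subunits was set against each other across the 8 leukemias. Of the 22 pairs, 0 passed at an adjusted p under 0.05 (exact permutation of the pairings, Pearson, adjusted over 22), and 2 had an unadjusted p under 0.05. The median r was -0.02 over the 22 pairs, -0.03 over the 97 other combinations of an alpha and a beta subunit, 0.04 over the 703 pairs of any 2 of the 38 genes, and 0.02 over all pairs of genes. ITGAX and ITGB2 had the highest r, 0.94 (exact permutation p = 0.0213, adjusted p = 0.358; Spearman rho = 0.86, exact p = 0.0107, adjusted p = 0.236). Without TCL1 arrays a and d, the farthest from the ITGAX median, r was 0.38, so the relation rests on those arrays. ITGA4 and ITGB1 had an r of -0.74 (exact permutation p = 0.0326, adjusted p = 0.358; rho = -0.33, exact p = 0.428, adjusted p = 0.787), and -0.20 without TCL1 arrays a and c. ITGAL and ITGB2 had an r of 0.62 (exact permutation p = 0.1, adjusted p = 0.442; rho = 0.74, exact p = 0.0458, adjusted p = 0.252), and 0.85 without TCL1 arrays c and d. Centred on the group means, r was 0.94 for ITGAX/ITGB2, -0.82 for ITGA4/ITGB1 and 0.65 for ITGAL/ITGB2, close to the values over all arrays.

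**Figure D2:**
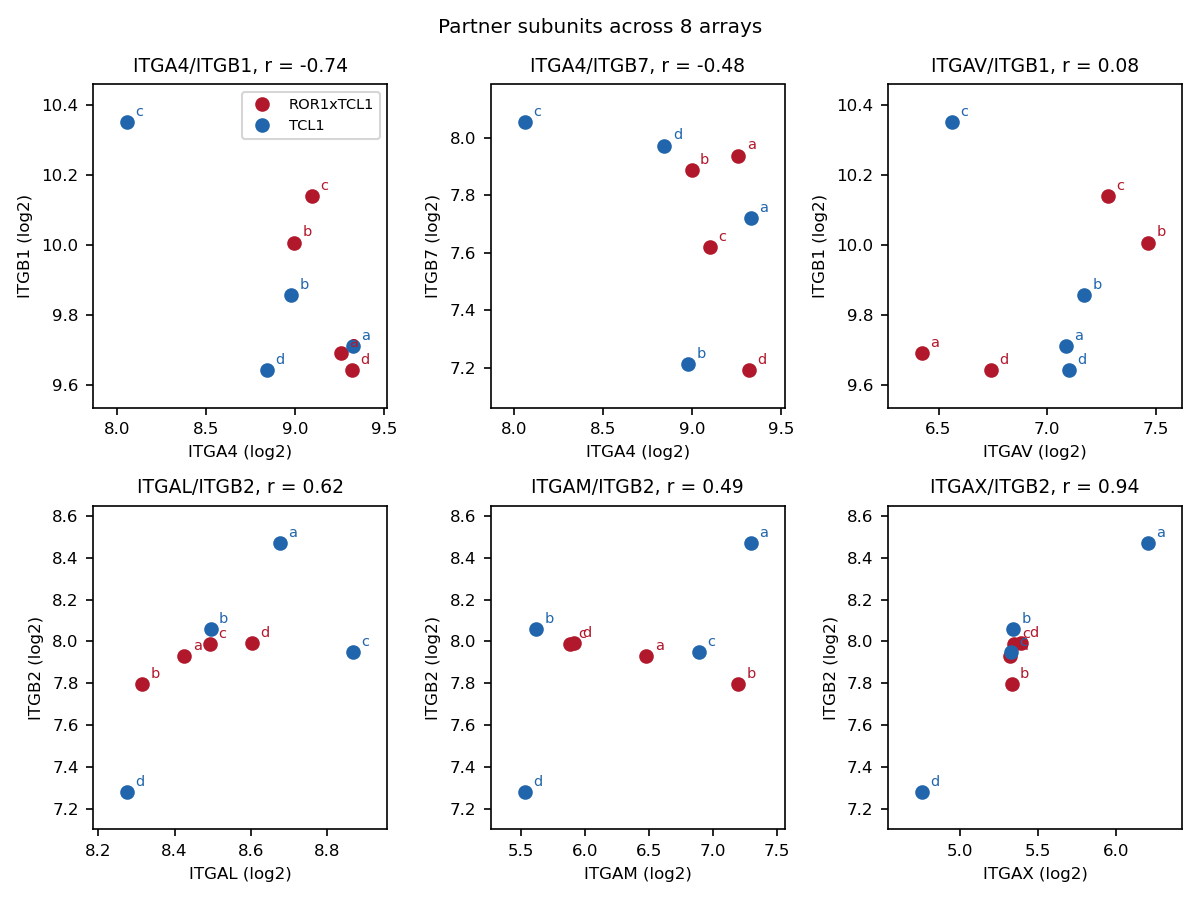
Values (log2) of the alpha subunit (horizontal) and its beta partner (vertical) for 6 heterodimers, 1 point per array, with ROR1xTCL1 arrays in red and TCL1 arrays in blue, lettered as in the text. ITGAX/ITGB2 reaches an r of 0.94 through TCL1 arrays a and d, and ITGA4/ITGB1 an r of -0.74 through TCL1 array c.

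Among the immunoglobulin superfamily molecules, 6 of 8 were above the median gene on all 8 arrays. CD47 (the signal read by SIRPA on macrophages), CD48 and CD2 (a ligand and its receptor on mouse lymphocytes), PECAM1 and ICAM1 were above the third quartile on every array. ICAM1, the ligand of LFA-1 and Mac-1, had 7.68, 7.54, 7.64 and 7.60 on ROR1xTCL1 arrays a to d, against 7.68, 7.79, 7.68 and 7.59 on TCL1 arrays a to d. It varied least of all 38 genes, with an SD of 0.07 over the 8 arrays. ICAM4, a red cell ligand of integrins, had its highest value, 5.46, on ROR1xTCL1 array a, where the erythroid score was highest too, against 4.45 to 4.99 elsewhere. Of the 11 erythroid markers 8 were measured, with a mean level of 6.51 to 9.25 on ROR1xTCL1 arrays and 6.75 to 7.87 on TCL1 arrays, and their part in the ICAM4 value was not tested.

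ICAM2, a ligand of LFA-1 on lymphocytes and endothelium, is named after its values were seen, since it had the smallest p of the 38. Its values were 6.34, 6.71, 6.35 and 6.52 on ROR1xTCL1 arrays a to d, against 6.97, 6.63, 6.50 and 6.91 on TCL1 arrays a to d. The groups overlapped, since ROR1xTCL1 array b lay above TCL1 arrays b and c and ROR1xTCL1 array d above TCL1 array c. The difference was -0.28 ± 0.14 (SE; 95% interval -0.60 to 0.05; limma, p = 0.0853, adjusted p = 0.9995; exact permutation p = 0.143). As a mean of its 11 probe sets ICAM2 had 5.88, 5.79, 5.86 and 5.91 in ROR1xTCL1 replicates 1 to 4, against 6.34, 6.16, 5.95 and 6.11 in TCL1 replicates 1 to 4. All 11 probe sets had the lower mean in ROR1xTCL1 leukemias, but they share the same arrays, so this count adds no replicates. Taken singly, 1 of the 11 separated the groups. As a mean of probe sets, all 4 ROR1xTCL1 replicates lay below all 4 TCL1 replicates. That difference was -0.28 ± 0.11 (SE; limma, p = 0.0327, adjusted p = 0.9996; exact permutation p = 0.0286, the smallest that 4 against 4 can give), which did not pass the test either.

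VCAM1, the ligand of VLA-4, varied most. It had 7.22, 4.42, 5.80 and 4.87 on ROR1xTCL1 arrays a to d, against 7.58, 6.68, 5.61 and 4.64 on TCL1 arrays a to d. Both groups held high and low arrays, with the 2 highest on array a of each. Its SD over the 8 arrays, 1.20, was the 69th largest of 16419 genes, and its range of 3.17 log2 units is the widest of the 38. The difference was -0.55 ± 0.74 (SE), with a 95% interval of -2.22 to 1.11, so the arrays do not bound a change of VCAM1 closely.

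The selectins SELE and SELP, both made by activated endothelium and SELP by platelets as well, lay at 3.52 to 4.17 and 3.53 to 3.96, below the median gene on all 8 arrays. SELPLG, the leukocyte ligand of P-selectin, was above the third quartile on every array. It had 8.49, 8.26, 8.19 and 8.66 on ROR1xTCL1 arrays a to d, against 9.24, 8.10, 8.56 and 8.58 on TCL1 arrays a to d. TCL1 array a lay above all other arrays. CD44 had 9.13, 10.045, 9.19 and 9.52 on ROR1xTCL1 arrays a to d, against 9.62, 9.51, 8.81 and 9.87 on TCL1 arrays a to d. Its highest array belonged to ROR1xTCL1 and its lowest to TCL1, with the group means almost equal. The differences were -0.22 ± 0.23 for SELPLG and 0.02 ± 0.27 for CD44 (SE).

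Both cytoplasmic activators were above the median gene on all arrays. TLN1 (talin) had 8.21, 8.22, 8.27 and 8.12 on ROR1xTCL1 arrays a to d, against 8.26, 8.19, 8.57 and 7.97 on TCL1 arrays a to d. FERMT3 (kindlin-3, the kindlin of blood cells) had 7.08, 6.95, 7.30 and 7.01 on ROR1xTCL1 arrays a to d, against 7.17, 6.65, 7.74 and 6.74 on TCL1 arrays a to d. For each gene, TCL1 array c was the highest and the ROR1xTCL1 arrays lay within the TCL1 range. The differences were -0.04 ± 0.13 for TLN1 and 0.01 ± 0.23 for FERMT3 (SE). Without TCL1 arrays a and c, which had the highest neutrophil scores, FERMT3 differed by 0.39 ± 0.14 (SE; limma, p = 0.0315, adjusted p = 0.9998; exact permutation p = 0.133), an alternative chosen after seeing the data. Those arrays also held the highest FERMT3 values of the TCL1 group, 7.17 and 7.74, so leaving them out raises the difference in itself. Among the arrays left, the groups did not overlap for 11.5% of all genes, FERMT3 included.

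The spread among leukemias differed widely from gene to gene. Over the 8 arrays, the SD was 1.20 for VCAM1, 0.71 for ITGAM, 0.61 for ITGA5, 0.48 for ITGA9, 0.42 for ITGB5, 0.41 for ITGA4, 0.41 for CD44 and 0.39 for ITGAX. The median SD of the 38 was 0.27, against 0.21 for all genes, and 23 of the 38 lay above the median of all genes. A range of 1 log2 unit or more was seen for 14 of the 38, and one under 0.5 for 9. The shares of all genes with such ranges were not computed, so these counts do not set the 38 apart. TCL1 array a held the highest value of 12 of the 38 genes, while it held the highest value of 9.18% of all genes. TCL1 array c held the highest value of 8 (12.4% of all genes), and TCL1 array d the lowest of 9 (12.65% of all genes). Pooled within the groups, the SD of VCAM1 was 1.26 and that of ITGAM 0.77, as wide as over all 8 arrays.

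**Figure D3:**
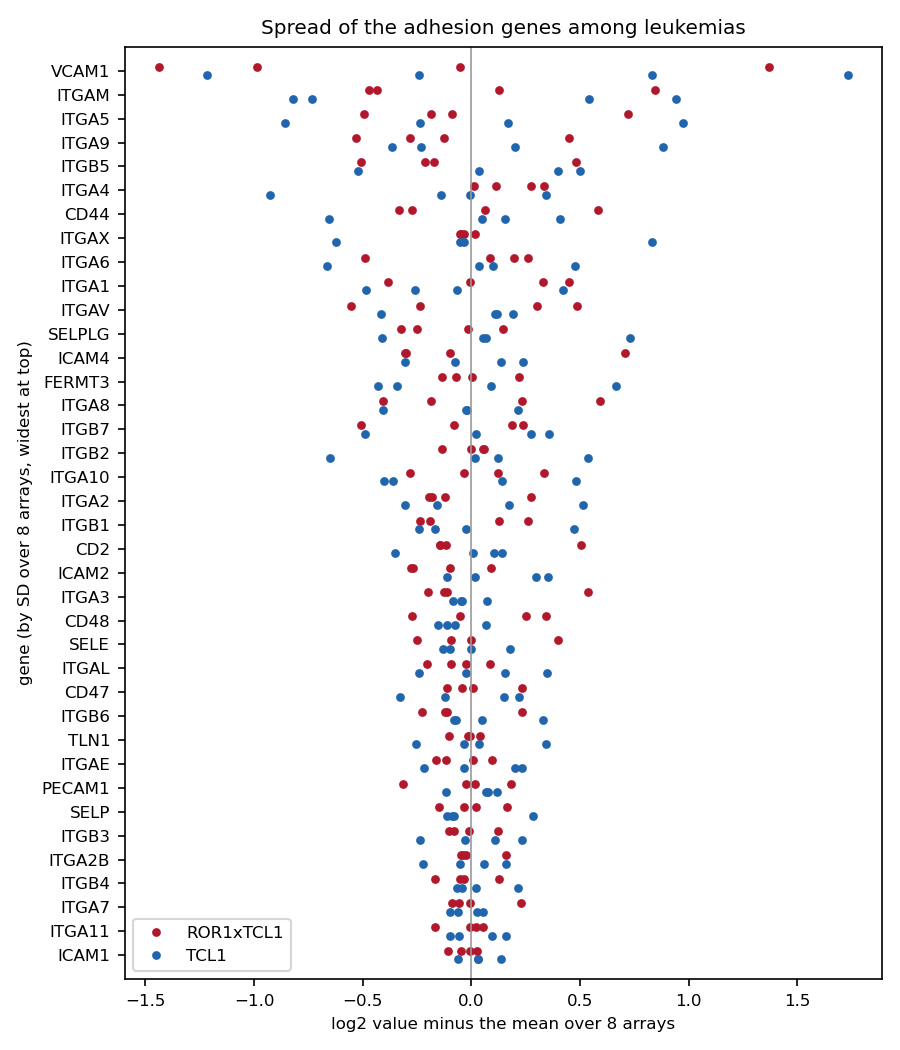
Deviation (log2) of each array from the mean of the gene over all 8 (horizontal) for the 38 genes, ordered by SD with the widest at the top; ROR1xTCL1 arrays are red (upper points of a row) and TCL1 arrays blue (lower points). VCAM1 spans 3.17 log2 units, ICAM1 has an SD of 0.07, and the colours are mixed in the rows.

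Genes that other cells also express were set beside marker scores of those cells, which hold no member of the adhesion list. Of 8 relations listed, 7 were measured in the gene table and 2 passed at an adjusted p under 0.05. ITGAM rose with the neutrophil score (r = 0.83, exact permutation p = 0.00317, adjusted p = 0.0122; rho = 0.95, exact p = 0.00114, adjusted p = 0.00799). Without TCL1 arrays a and c, the 2 farthest from the median score, r was 0.90, and centred on the group means it was 0.89. All 15 neutrophil markers were measured, with a mean level of 5.37 to 5.99 on ROR1xTCL1 arrays and 4.94 to 8.78 on TCL1 arrays. None of the 15 was under the first quartile on all arrays (0), and 4 were above the median on all. ROR1xTCL1 array b had an ITGAM value close to that of TCL1 array a, at a neutrophil score of -0.13.

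VCAM1 rose with the monocyte and macrophage score (r = 0.89, exact permutation p = 0.0035, adjusted p = 0.0122; rho = 0.81, exact p = 0.0218, adjusted p = 0.0762). Without ROR1xTCL1 array a and TCL1 array a, r was 0.65, and centred on the group means it was 0.89. On ROR1xTCL1 arrays b, c and d, scores of -0.19, -0.41 and -0.48 went with VCAM1 values of 4.42, 5.80 and 4.87. Within that group the rise therefore rests on array a. All 14 markers of this list were measured, with a mean level of 5.39 to 6.62 on ROR1xTCL1 arrays and 5.04 to 6.87 on TCL1 arrays, and 5 of them were above the median gene on all arrays. By probe sets, ITGAD, a macrophage integrin chain, rose with the same score (r = 0.87, exact permutation p = 0.00231, adjusted p = 0.00774 over 8; rho = 0.90, exact p = 0.00456, adjusted p = 0.0183), with an r of 0.80 without ROR1xTCL1 replicate 1 and TCL1 replicate 1. With 1 array left out in turn, r stayed between 0.80 and 0.97 for ITGAM and between 0.82 and 0.95 for VCAM1. Without TCL1 array a, b or d, 0 relations passed the adjusted threshold over the 7 arrays left.

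The other 5 relations did not pass. They were ITGAX with the dendritic cell score (r = 0.37), ITGA2B with the platelet score (0.51), CD2 with the T cell score (-0.47), ITGA1 with the natural killer cell score (-0.60) and PECAM1 with the endothelial score (-0.74), with exact permutation p-values from 0.0412 to 0.349 and adjusted p-values from 0.0962 to 0.349. For PECAM1 the exact permutation p was 0.0412, and 3 of 11 endothelial markers were under the first quartile on all arrays. ITGA1 turned from -0.60 in the gene table to 0.76 by probe sets (exact permutation p = 0.0279, adjusted p = 0.0557), the gene whose level disagreed between the tables.

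**Figure D4:**
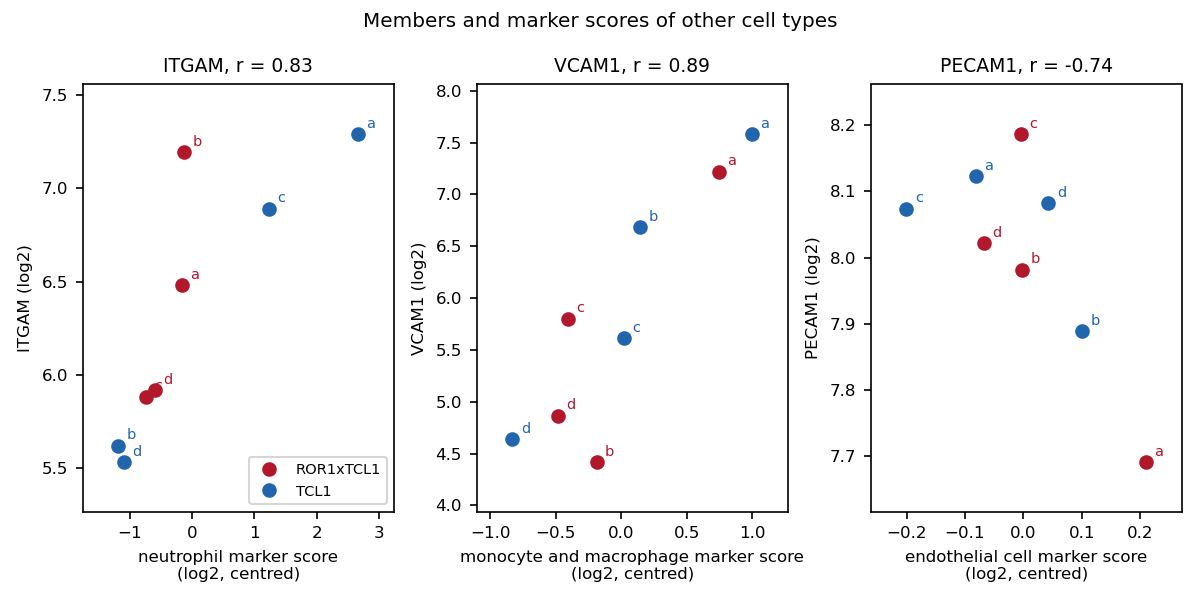
Values (log2, vertical) of ITGAM, VCAM1 and PECAM1 on the 8 arrays against the score of neutrophil, monocyte and macrophage, and endothelial markers (mean of log2 values centred on each gene's mean, horizontal), with ROR1xTCL1 arrays in red and TCL1 arrays in blue. ITGAM (r = 0.83) and VCAM1 (r = 0.89) rise with their score over the 8 arrays, and PECAM1 (r = -0.74) does not. Among ROR1xTCL1 arrays, the high VCAM1 value at a high score is that of array a.

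Between the genotypes, 0 of the 38 genes passed at an adjusted p under 0.05 (limma over 16419 genes), and the share of all genes called was 0%. At an unadjusted p under 0.05 the count was 0 of 38 as well, where 1.63% of all genes reached it. In 0 of the 38 did the 4 ROR1xTCL1 values lie apart from the 4 TCL1 values, against 1.1% of all genes. Shares this low leave less than 1 gene of 38 at the rate of all genes, so the counts do not set these genes apart. The mean was higher in ROR1xTCL1 leukemias for 16 of the 38 and lower for 22, and 45.9% of all genes were higher. The median difference was -0.02 over the 38 and -0.01 over all genes.

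The differences were small where they could be measured closely. Of the 38, 26 had an absolute difference under 0.1 log2 units and 36 one under 0.3; the exceptions were ITGA4 and VCAM1. The median absolute difference was 0.06 over the 38 and 0.09 over all genes. The 95% interval lay wholly within 1 log2 unit for 36 genes and within 0.5 for 18. Those reaching past 1 were VCAM1 and ITGAM. The half-width of the interval had a median of 0.43 and ran from 0.21 to 1.67, so a 2-fold change, 1 log2 unit, lay outside the interval of 36 genes, while changes under 0.21 could not be told from 0 for any. By probe set means 31 of the 38 kept the sign of their difference, and 2 of the 40 genes with probe sets (ITGA4 and ICAM2) reached an unadjusted p under 0.05, where 1.88% of all 22182 genes so read did. The groups did not overlap for 1 of the 40 (ICAM2) and for 1.22% of all those genes.

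**Figure D5:**
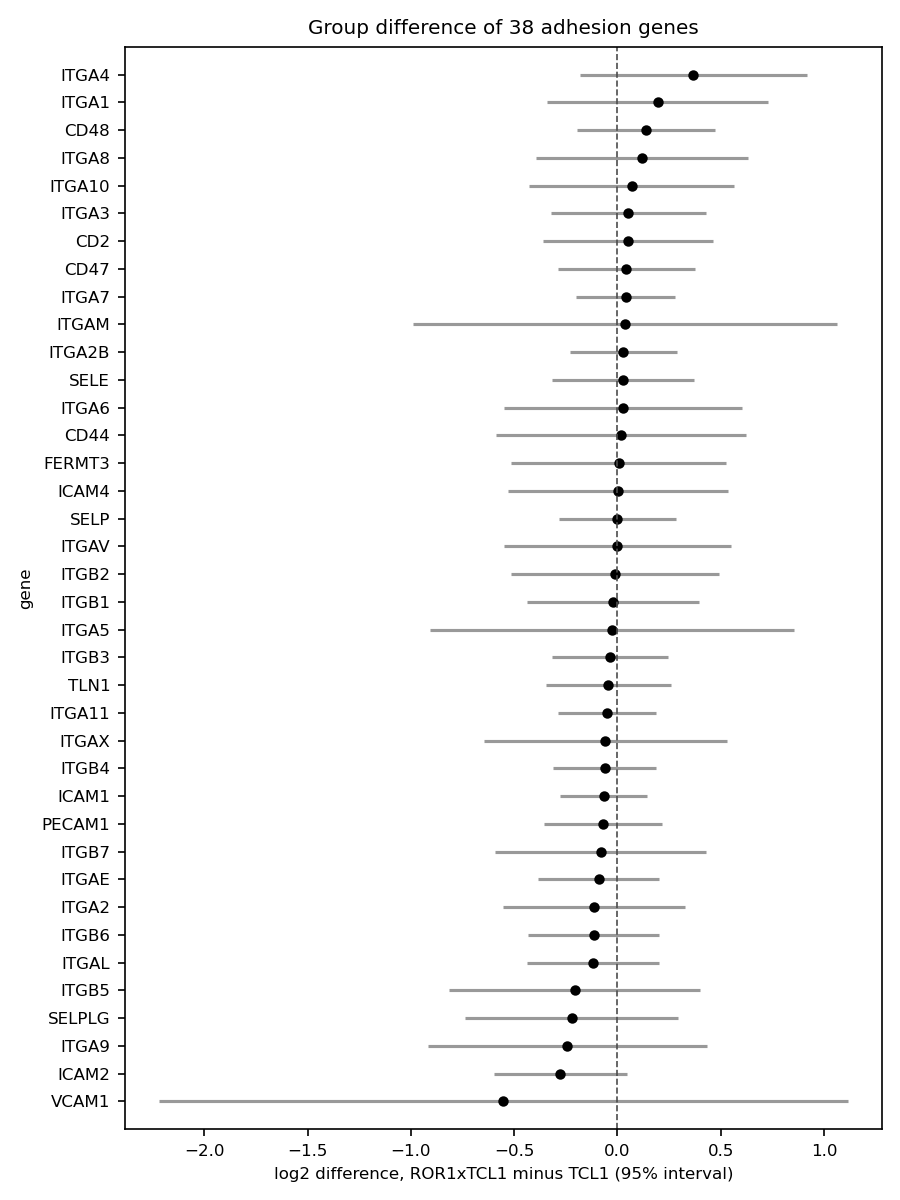
Log2 difference, ROR1xTCL1 minus TCL1 (points), with the 95% limma interval (lines) for the 38 genes, 4 arrays a group. All 38 intervals include 0, from ITGA4 at 0.37 to VCAM1 at -0.55.

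Genes that act with these molecules were read from 4 lists. Of 31 measured genes of integrin activation and linkage to actin (34 listed), 0 passed in either direction, 14 had the higher mean in ROR1xTCL1 leukemias and 17 the lower, and the median difference was -0.01. The smallest p belonged to RAC2, the blood cell GTPase that shapes actin below the membrane. RAC2 had 11.1, 11.2, 11.2 and 10.9 on ROR1xTCL1 arrays a to d, against 11.5, 11.4, 11.3 and 11.3 on TCL1 arrays a to d. The 4 ROR1xTCL1 arrays lay below the 4 TCL1 arrays, with a difference of -0.29 ± 0.11 (SE; limma, p = 0.0281, adjusted p = 0.9995; exact permutation p = 0.0286). SHARPIN, an inhibitor of integrin activation, differed by -0.18 ± 0.13 and FERMT1, an epithelial kindlin under the first quartile on all 8 arrays, by 0.20 ± 0.14 (SE).

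Of 25 integrin ligands measured (28 listed), 0 passed, 12 had the higher and 13 the lower mean, and the median difference was -0.00. ICAM5, a ligand of LFA-1 known from neurons, had 4.46, 4.44, 4.37 and 4.57 on ROR1xTCL1 arrays a to d, against 4.20, 4.26, 4.26 and 4.21 on TCL1 arrays a to d. The groups did not overlap, all below the median gene, and the difference of 0.23 ± 0.09 (SE) did not pass (limma, p = 0.0322, adjusted p = 0.9995; exact permutation p = 0.0286). NID1, a basement membrane protein, differed by 0.33 ± 0.18 and SPP1 (osteopontin) by -0.41 ± 0.25 (SE).

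Of 21 partners of the other adhesion molecules (23 listed), 0 passed, 11 had the higher and 10 the lower mean, and the median difference was 0.01. SLAMF6, a lymphocyte receptor of the CD2 family, had 9.13, 8.30, 9.12 and 8.60 on ROR1xTCL1 arrays a to d, against 9.08, 9.02, 9.55 and 9.37 on TCL1 arrays a to d. The groups overlapped through ROR1xTCL1 arrays a and c, and the difference was -0.47 ± 0.21 (SE; limma, p = 0.0559, adjusted p = 0.9995; exact permutation p = 0.171). CD151, a tetraspanin bound to laminin-binding integrins, differed by 0.22 ± 0.15, and SPN, a leukocyte sialomucin, by -0.39 ± 0.30 (SE). Of 12 genes of selectin ligand synthesis, 0 passed, 8 had the higher and 4 the lower mean, and the median difference was 0.04. The smallest p there belonged to C1GALT1C1 (0.26 ± 0.14), a chaperone of O-glycan synthesis, the sialyltransferase ST3GAL4 (0.32 ± 0.19) and the sulfotransferase CHST2 (-0.21 ± 0.15, all log2 differences with SE). The CHST2 difference did not hold by probe set means (0.007 ± 0.14, SE).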

How the data were processed

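Total RNA of leukemia cells was measured in 8 mice. The authors deposited a probe set table of log2 RMA values, made with oligo per the labels (R 2.15.1 per the submitters' processing notes), and a gene table of 16495 rows, whose scale is unstated and was read as log2. The series text names the Exon Array Computational Tool, and how probe sets were combined into genes was not stated in the sources used here. In the gene table, blanks after 2303 names were removed, 4 rows named by a number were left out and 72 repeated names were averaged, leaving 16419 genes. Of the 1236087 probe sets, 321091 had 1 gene symbol.

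Genes were compared with limma 3.58.1 (R 4.3.3; lmFit, eBayes, 2-sided, Benjamini-Hochberg over all genes, ROR1xTCL1 minus TCL1), checked on simulated data. No filter on dim genes was used, and the number of arrays limits the precision. Correlations have exact 2-sided p-values over 40320 pairings. Values on every array are given for subunits of heterodimers above the median, the 8 genes of largest SD, TLN1, FERMT3, CD44, SELPLG, ICAM1 and VCAM1, and values for the 3 genes of smallest p in each pathway list. Promoter sequences are from RefSeq, GRCm38.p6, and 28 of the 41 genes had one. The members and lists were chosen with earlier results of these data known. Probe set means or medians, a quartile as the bar, ranks and leaving out arrays were tried as alternatives.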

Additional observations from a re-analysis of the deposited data

Results flagged for a closer look

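In 6 of 76 gene and group combinations, 1 array stood apart from the other 3 of its group by more of the group's whole range than Dixon's 95% critical value for 4 samples allows. For independent, normally distributed values, chance alone gives about 1 in 20, or 3.8 of 76. Genes read on the same arrays are not independent, and the share of all genes past this limit was not computed. The count is therefore a description only. ITGA2 was at 3.99 on ROR1xTCL1 array c, against 3.52 to 3.60 on the other ROR1xTCL1 arrays. ROR1xTCL1 array a had the highest erythroid score (1.82), megakaryocyte and platelet score (0.42) and endothelial score (0.21). On that array, ITGA2B was at 5.20 against 4.997 to 5.02, and ITGA3 was at 4.90 against 4.16 to 4.25. CD2 was at 10.66 on ROR1xTCL1 array b, against 10.01 to 10.04 on the other ROR1xTCL1 arrays. ITGAV was at 6.56 on TCL1 array c, against 7.09 to 7.17 on the other TCL1 arrays. SELP was at 3.96 on TCL1 array a, against 3.56 to 3.59 on the other TCL1 arrays. That array had the highest neutrophil, monocyte and macrophage, T cell, natural killer cell and dendritic cell scores. SELP was under the first quartile on 2 arrays, where its signal may be background. TCL1 array b also had ITGA2B at 5.20, at a megakaryocyte and platelet score of 0.09. Over the 8 arrays, neither ITGA2B with that score nor CD2 with the T cell score passed. For ITGA2B, r was 0.51, and 0.21 without ROR1xTCL1 array a. The part of other cell types in the single values listed here was not tested.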

How the results depend on the processing

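The count of 0 genes past the adjusted threshold, among the 38 and among all genes, held under every alternative run, with a smallest adjusted p of 0.999 over the 38 (limma). The count at an unadjusted p under 0.05 was 2 by probe set means (ITGA4 and ICAM2; 1.88% of all genes), 1 with the replicate number as a block (ICAM2; 2.57%), 1 without TCL1 arrays a and c (FERMT3; 3.79%; chosen after seeing the data), and 0 to 1 with 1 array left out (1.37% to 2.59% of all genes; ICAM2 without ROR1xTCL1 array b or TCL1 array c, ITGA4 without TCL1 array a). The count of genes whose groups did not overlap was 1 by probe set means and 1 with the block (ICAM2; 1.22% of all genes), 0 to 1 with 1 array left out (2.27% to 4.2% of all genes; ITGA3 without ROR1xTCL1 array a, ITGB6 without ROR1xTCL1 array b, ITGA4 without TCL1 array a, ICAM1 without TCL1 array d), and 4 without TCL1 arrays a and c (FERMT3, ITGA11, ITGA4 and ITGAM), where 11.5% of all genes did not overlap. By probe set medians, both counts were 0 of 40, where 2.24% of all genes reached that p and 1.52% did not overlap. Heterodimers above the bar were 7 in the gene table, 3 with the third quartile, 11 by means over arrays and 11 by probe set means. Relations to marker scores passing were 2, with 1 by Spearman's rho and 0 to 3 with 1 array left out. Of 495 alternative values for 31 single genes, 428 kept the sign, 67 took the other and 0 passed. Same-numbered replicates correlated at -0.005 to 0.235, with 3 of 4 over 0.1, and different-numbered ones at -0.229 to 0.319. The numbers were therefore not taken as pairs. The cause of these shifts was not tested. 4 arrays per group, an unstated gene summary, unbalanced sex and unknown purity limit the comparison.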
